A study of Mus musculus with 8 samples.

Results

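The replication-dependent histone genes of the mouse lie in a few dense clusters, and the regions described here are those of a deposited H3K27ac table whose nearest gene carries a clustered histone name (Hist1h to Hist4h, or the newer H-number names) within 100 kb of its transcription start. H3K27ac, acetylation of histone H3 at lysine 27, marks active promoters and enhancers, and was profiled by CUT&Tag, in which an antibody-tethered transposase cuts and tags the chromatin that bears a mark. The name rule took 74 of the 112137 regions, with 51 gene symbols. H13, an intramembrane protease gene, and H19, an imprinted noncoding RNA gene, met the pattern by name alone and were left out with their 4 regions. This left 70 regions of 49 histone genes, of which 68 regions of 48 genes had a value above 0 in every group.

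The 8 libraries formed 4 groups of 2. They came from mouse embryonic stem cells in the naive state or, 63 hours after withdrawal of LIF2i, in the formative state. In each state the cells were either wild type (WT, the R1 line) or a double knockout of MLL3 and MLL4 (DKO, for which the labels name no line). Kmt2c encodes MLL3 and Kmt2d encodes MLL4, enzymes that methylate H3K4 mainly at enhancers. The sources used here do not say how many clones the DKO libraries represent, and a difference between genotypes cannot be told apart from a difference between lines. The design addresses how the mark differs between the states and between the genotypes.

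Each nucleosome wraps DNA around the core histones H2A, H2B, H3 and H4, and H1 binds the linker between nucleosomes. Replication-dependent histone genes are transcribed chiefly in S phase, when new DNA must be packaged. They lack introns, and their mRNAs end in a stem-loop in place of a poly(A) tail. Many H2A and H2B genes stand head to head and share 1 stretch of promoter DNA. NPAT, a cyclin E-CDK2 substrate, drives their transcription from nuclear bodies that form at the clusters.

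Promoter windows of 1 member per class are shown because the regions that carried the results lay over such starts. Each runs from 250 bases before to 50 bases after the RefSeq start, 5′ to 3′ on the gene's strand, from RefSeq on GRCm38.p6 (the build also called mm10). Capitals mark TATAAA (letters of the TATA box, which lies shortly before a start), CCAAT (bound by NF-Y) and ATTTGCAT (the octamer bound by OCT1) wherever the letters occur in the window, searched on both strands. In the windows shown TATAAA begins 27 bases before the start of Hist1h1e, 127 bases before that of Hist1h4n and 15 bases after that of Hist1h2ah. Hist1h2ah (H2A, chr13:22035594-22035893, minus strand) and Hist1h2bj (H2B, chr13:22042948-22043247, plus strand) each stand head to head with a partner, Hist1h2bk and Hist1h2ag. Hist2h3c1 (H3) is at chr3:96246435-96246734 on the plus strand, Hist1h4n (H4) at chr13:21832148-21832447 on the minus strand, and Hist1h1e (H1) at chr13:23622509-23622808 on the minus strand.
Hist1h2ah: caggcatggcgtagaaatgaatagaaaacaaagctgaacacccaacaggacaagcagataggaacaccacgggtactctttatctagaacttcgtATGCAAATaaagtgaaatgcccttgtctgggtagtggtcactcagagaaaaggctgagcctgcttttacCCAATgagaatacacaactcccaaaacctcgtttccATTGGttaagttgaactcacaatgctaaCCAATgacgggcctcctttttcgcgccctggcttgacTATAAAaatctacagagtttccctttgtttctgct
Hist1h2bj: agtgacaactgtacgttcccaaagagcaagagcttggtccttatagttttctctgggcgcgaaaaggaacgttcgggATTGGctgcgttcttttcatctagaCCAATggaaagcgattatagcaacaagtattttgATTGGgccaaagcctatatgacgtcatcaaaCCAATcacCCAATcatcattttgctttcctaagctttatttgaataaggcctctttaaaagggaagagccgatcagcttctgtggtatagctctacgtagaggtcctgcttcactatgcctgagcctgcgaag
Hist2h3c1: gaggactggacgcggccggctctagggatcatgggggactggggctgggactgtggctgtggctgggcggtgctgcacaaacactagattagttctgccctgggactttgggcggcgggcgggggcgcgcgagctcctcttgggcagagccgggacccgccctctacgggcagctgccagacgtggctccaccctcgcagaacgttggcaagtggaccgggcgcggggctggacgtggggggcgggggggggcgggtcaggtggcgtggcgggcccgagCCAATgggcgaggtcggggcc
Hist1h4n: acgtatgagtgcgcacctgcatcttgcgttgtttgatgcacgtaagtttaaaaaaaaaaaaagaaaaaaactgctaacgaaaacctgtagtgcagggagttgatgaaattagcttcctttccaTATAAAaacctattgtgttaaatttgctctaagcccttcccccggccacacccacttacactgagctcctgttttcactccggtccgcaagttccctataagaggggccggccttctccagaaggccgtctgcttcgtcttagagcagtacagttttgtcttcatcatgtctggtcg
Hist1h1e: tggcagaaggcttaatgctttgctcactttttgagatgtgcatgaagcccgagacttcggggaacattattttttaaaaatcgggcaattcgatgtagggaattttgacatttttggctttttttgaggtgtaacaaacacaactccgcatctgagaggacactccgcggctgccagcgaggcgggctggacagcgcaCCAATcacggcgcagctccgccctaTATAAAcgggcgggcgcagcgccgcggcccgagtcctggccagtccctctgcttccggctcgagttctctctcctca

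Of the 49 member genes, 43 matched 1 RefSeq gene with a window. CCAAT was found in 79.1% of these windows and in 37.4% of all 32851 RefSeq promoter windows. It was in every H1, H2A, H2B and H3 window (4, 10, 10 and 8) but in only 2 of 11 H4 windows. TATAAA was in 55.8% of the member windows and in 13.6% of all windows. The octamer was in 4 of 10 H2A and 4 of 10 H2B windows and in none of the 4 H1, 8 H3 and 11 H4 windows, against 1.74% of all windows. A match describes the letters of the window and shows neither a TATA box nor a bound factor.

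The members lay mostly in the Hist1 cluster on chromosome 13 (55 regions, 39 genes) and the Hist2 cluster on chromosome 3 (12 regions, 7 genes). Hist3h2a on chromosome 11 and Hist4h4 on chromosome 6 had 1 region each. The last member was a region 54515 bases from Hist1h2al, a gene outside the Hist1 cluster that GENCODE M21 does not list as protein coding. GENCODE M21 lists 67 protein-coding clustered histone genes. A member region covered the start of 58, and 14 of these were not named as nearest gene because 1 region spanned several starts. The 5 with neither a named region nor a covered start were Hist1h1t, Hist1h2aa and Hist1h2ba, which encode testis histones, and Hist2h2ac and Hist3h2ba. Of the 70 regions, 38 held at least 1 histone start, taken as the outermost 5′ end of the gene in GENCODE M21, and are called start-holding regions below. The regions of Hist1h1d and Hist1h2be are not among them because GENCODE places the outermost 5′ end of these genes elsewhere, although the file's own start lies near their centres. Of these, 14 held 2 or more starts, up to 4, and a region is counted below under the class of the gene the file assigns to it.

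Near-identical gene copies limit how signal can be assigned between neighbours. In 32 of the 70 regions, 27 of them start-holding, at least 10% of all 50-base words also occurred in another member region. Among start-holding regions the most alike were the region assigned to Hist1h2ap (chr13:21808553-21812398, 85.0% of words) and the region assigned to Hist1h4n (chr13:21829698-21834912, 70.0%). By GENCODE the first holds the starts of Hist1h2bq, Hist1h2ao and Hist1h4m, and the second those of Hist1h4n, Hist1h2ap and Hist1h2br. The Hist2h3c1 region (chr3:96238073-96241236, 59.9%) likewise holds the starts of Hist2h3c2 and Hist2h2aa2, while the Hist2h3c1 window printed above lies in the Hist2h2aa1 region (chr3:96243892-96247350). Gene names below are those the file assigns, and how the authors treated reads that map to several places is not given in the sources used here.

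H3K27ac values are the authors' pooled log2 values, with 1 value per group and so no SD and no n. Because they fell steeply with region width, they are compared only between groups within a region. Formative against naive WT is the only comparison with a replicated test, the DiffBind test in the authors' deposited table. Its p-values rest on the spread between 2 libraries per group, labelled as replicates 1 and 2. The others are described by size alone. A region counts as higher or lower there at an absolute log2 difference of at least 1, which is 2-fold. For comparison, the same values are given over all 105643 regions above 0 in every group and over the 7204 of them that hold a protein-coding start. The depth per library is unknown. The labelled states were checked on H3K27ac near marker genes. Over 5 naive markers (all with a region) the median formative minus naive difference in WT was -2.93, and over the 4 of 5 formative markers with a region it was 1.97, although Otx2 among the latter was at -1.43. In DKO cells the medians were -1.24 and 1.24. Near 4 of 6 fibroblast feeder markers it was -0.29, with 2 genes having a region that rose and 2 a region that fell in the authors' deposited table. H3K27ac does not check the deletions, but the deposited RNA folds, DKO against WT, were -1.15 (naive) and -0.91 (formative) for Kmt2c, and -0.72 and -0.84 for Kmt2d.

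In WT cells, H3K27ac over the histone starts was lower in the formative than in the naive state. By the DiffBind test (adjusted p under 0.05) of the authors' deposited table, 21 of the 38 start-holding regions fell and 0 rose, with a median log2 fold of -1.0. Over all start-holding regions 32.6% fell and 7.58% rose, with a median of -0.50. Over all 68 member regions, 34 fell and 0 rose, against 16.4% and 18.2% of all regions. At an unadjusted p under 0.05 the count of member regions higher was also 0 and the count lower was 38. The pooled values likewise placed 0 of the 68 at 2-fold higher or more. In bulk chromatin, fewer cells bearing the mark and less mark per cell cannot be told apart. The DiffBind concentration in the authors' deposited table, divided by region width (log2 of mean normalised reads per kb), had over start-holding members a median of 7.17 in naive WT, above 63.2% of all start-holding regions. In formative WT it was 6.15, above 36.6% of them.

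The same start-holding regions were higher in DKO than in WT cells in both states. In naive cells all 38 were above 0, as were 75.4% of all start-holding regions, with a median log2 difference of 1.12, and 20 were at least 2-fold higher. Among all start-holding regions the shares past 2-fold were 28.8% higher and 6.30% lower (median 0.56), and of all regions 19.2% were higher and 26.3% lower. In formative cells all 38 were again above 0, as were 80.7% of all start-holding regions, with a median of 1.59, and 34 were at least 2-fold higher. The shares there were 44.5% higher and 7.00% lower over all start-holding regions (median 0.89), and 11.2% higher and 39.3% lower over all regions. The genotype difference was larger in formative cells in 32 of the 38 regions, a gap that was not tested. The same held in 4540 of all 7204 start-holding regions and 43140 of all 105643 regions. State markers moved with the formative comparison too: their median H3K27ac, DKO minus WT, was 0.49 over the 5 naive markers, -1.07 over the 4 formative markers and -1.0 over the 4 feeder markers. In naive cells these medians were -0.37, -0.87 and -0.40. The part of cell state in the histone values was not tested.

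Between the DKO states the values at these starts lay closer together. The median formative minus naive difference was -0.50 in DKO cells, and 1 of 38 start-holding regions was at least 2-fold lower and 0 were higher. Of all start-holding regions 9.36% were lower and 6.29% higher (median -0.23), and of all regions 17.9% were lower and 16.6% higher. In 30 of the 38 (78.9%) the groups stood in 1 order: naive DKO highest, then formative DKO, naive WT and formative WT. That order held in 25.5% of all start-holding regions and 4.10% of all regions. Formative DKO was above naive WT in 34 of 38 histone start regions, against 66.6% of all start-holding regions. Naive DKO was the highest group in 36, against 3562 of all 7204 start-holding regions.

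The scaling between groups is not stated by the sources used here, and it moves these medians. The median difference over all regions, DKO against WT, was -0.10 in naive and -0.63 in formative cells, while over all 5452 regions labelled as promoters it was 0.58 and 0.79. For formative against naive it was 0.48 over all regions and -0.31 over promoters in WT, and -0.07 and -0.17 in DKO. Measured relative to the promoter median, 33 of 38 histone start regions were still above 0 in naive DKO against WT (median 0.54) and 36 of 38 in formative DKO against WT (median 0.81). Relative to the same median, 33 of 38 were below 0 for formative against naive WT (median -0.69) and 31 of 38 in DKO (median -0.33).

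**Figure D1:**
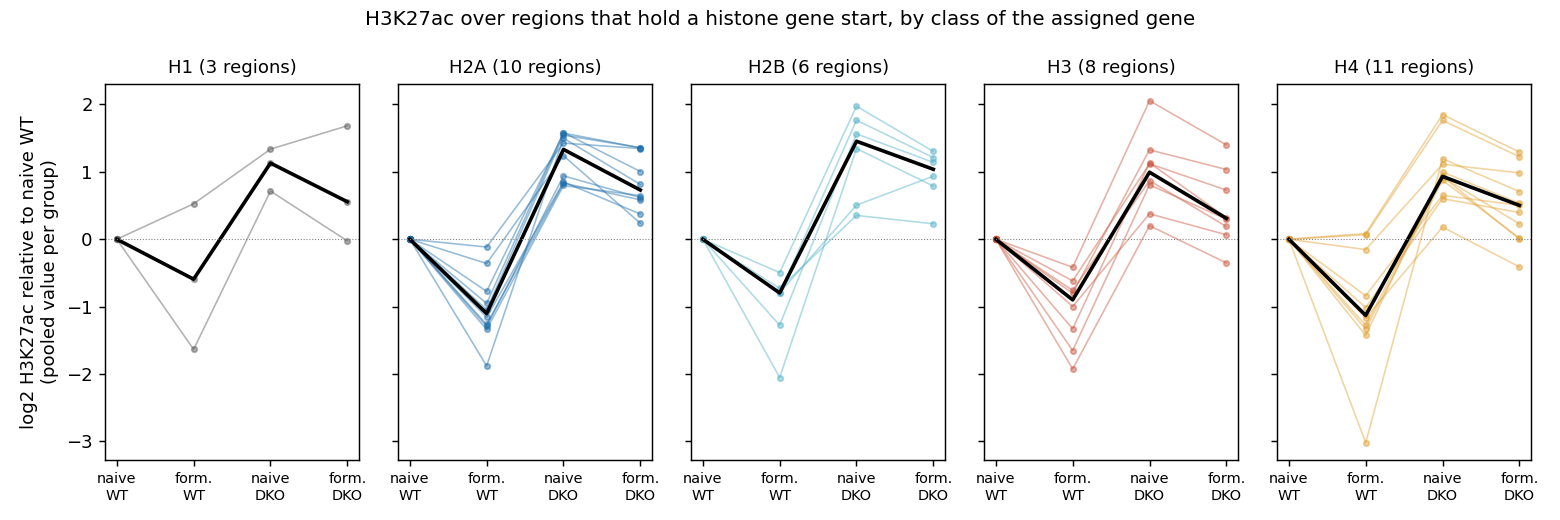
Pooled log2 H3K27ac in each of the 4 groups relative to naive WT (y axis) for the 38 regions that hold a histone start, 1 panel per class of the assigned gene. Thin lines are regions and the thick line is their median. Formative WT was the lowest group in 35 of 38 regions and naive DKO the highest in 36. Over all 7204 start-holding regions these counts were 4315 and 3562.

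Regions with both an H2A and an H2B start, the head-to-head pairs, numbered 9, and all 9 followed the order naive DKO, formative DKO, naive WT, formative WT. Between the WT states, 8 of the 9 fell in the authors' deposited table (median log2 fold -1.30). The other 29 start-holding regions had a median of -0.85, and 13 of them fell. In formative cells the pairs were higher in DKO by a median log2 difference of 1.99, and the other 29 by 1.46. In naive cells the order was the reverse: the pairs had a median of 1.00, with 4 of 9 past 2-fold, and the other 29 one of 1.12, with 16 past it. The difference between these sets of regions was not tested. All 9 pair regions shared over 10% of their 50-base words with other members, from 12.4% to 85.0%. The 11 start-holding regions with under 10% shared words were all among the other 29, and 7 of these 11 followed the order. H2A and H2B form the dimers on either side of the central H3-H4 tetramer.

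The Hist1h2ah region (chr13:22032516-22037768), which also holds the start of Hist1h2bk, had log2 values of 7.09 in naive WT, 5.75 in formative WT, 7.89 in naive DKO and 7.74 in formative DKO. Formative WT was the lowest group. Its log2 fold between the WT states was -1.31 in the authors' deposited table (DiffBind adjusted p = 4.70e-05). The Hist1h2bj region (chr13:22041897-22044825), shared with Hist1h2ag, read 8.08, 7.35, 8.44 and 8.31 in the same order of groups, and fell by 0.72 on the log2 scale in the authors' deposited table (DiffBind adjusted p = 0.0326). Its genotype differences, 0.35 in naive and 0.96 in formative cells, were the smallest among the pairs.

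The pair Hist1h2ak and Hist1h2bn (chr13:21752974-21754609) showed the largest formative genotype difference of the 9. Its values were 8.31 in naive WT, 6.43 in formative WT, 9.81 in naive DKO and 9.12 in formative DKO, a DKO minus WT difference of 1.50 in naive and 2.69 in formative cells. Both DKO groups were above both WT groups. Its log2 fold between the WT states in the authors' deposited table was -1.70 (DiffBind adjusted p = 0.00646). The Hist1h2an and Hist1h2bp pair (chr13:21785951-21788005) read 7.93, 6.88, 9.47 and 9.29, so that formative DKO was 2.40 above formative WT.

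Hist1h2bg marks the densest region, chr13:23569545-23574909, which spans the starts of Hist1h2ae, Hist1h2bg, Hist1h2bf and Hist1h2ad. It read 6.61 in naive WT, 5.34 in formative WT, 8.18 in naive DKO and 7.75 in formative DKO. Its WT log2 fold was -1.30 in the authors' deposited table (DiffBind adjusted p = 3.15e-07), and both DKO values lay above both WT values. The Hist1h2ac region (chr13:23682937-23684917), shared with Hist1h2bc, did not pass between WT states in the authors' deposited table (log2 fold -0.73, DiffBind adjusted p = 0.15) but was higher in DKO by 1.57 in naive and 2.13 in formative cells.

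Among H2B regions without an H2A start, Hist1h2bh (chr13:23542477-23543609) had the largest formative genotype difference, 2.84. Its values were 8.89 in naive WT, 6.84 in formative WT, 10.23 in naive DKO and 9.68 in formative DKO, and its log2 fold between WT states was -2.12 in the authors' deposited table (DiffBind adjusted p = 0.0159). Hist1h2bm (chr13:21721142-21722610) differed most between genotypes in naive cells, by 1.97, with values of 8.37, 7.88, 10.34 and 9.67. Its WT log2 fold of -0.45 in the authors' deposited table did not pass the test (DiffBind adjusted p = 0.502). The single-start H2A region of Hist1h2af (chr13:23533551-23534222) was the 1 start-holding region at least 2-fold lower in formative than naive DKO cells, with values of 9.47 in naive WT, 9.11 in formative WT, 10.71 in naive DKO and 9.71 in formative DKO. The regions of Hist1h2be (chr13:23584956-23587406, log2 fold -1.13) and Hist1h2bb (chr13:23747946-23748678, 1578 bases from its assigned start, -2.10) fell in the authors' deposited table (DiffBind adjusted p = 0.00361 and 0.00406), and DKO was higher there by 1.10 and 2.38 in formative cells.

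H3 regions fell in WT cells in 5 of 8 cases in the authors' deposited table, with a median log2 fold of -0.92. H3 is the histone whose tail bears the mark itself. The Hist1h3c region (chr13:23741360-23747553), which also holds the start of Hist1h2bb, read 7.61 in naive WT, 5.69 in formative WT, 7.81 in naive DKO and 7.26 in formative DKO. It had the largest WT fall among H3 regions, with a log2 fold of -1.98 in the authors' deposited table (DiffBind adjusted p = 1.40e-23), and a naive genotype difference of 0.20. For Hist1h3i (chr13:21782088-21784385) the WT log2 fold of -0.51 in the authors' deposited table did not pass (DiffBind adjusted p = 0.324), and the naive genotype difference of 2.06 was the largest of the 38.

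The Hist1h3a region (chr13:23759904-23765072) also spans the starts of Hist1h4a and Hist1h1a, so that 3 classes share it. It read 7.60 in naive WT, 6.60 in formative WT, 7.98 in naive DKO and 7.67 in formative DKO. Its WT log2 fold was -0.99 in the authors' deposited table (DiffBind adjusted p = 2.97e-05), and DKO was higher by 0.38 in naive and 1.06 in formative cells. The Hist2h3c1 region, in the Hist2 cluster, was the only one of 12 Hist2 regions to fall in the authors' deposited table (log2 fold -0.85, DiffBind adjusted p = 0.0328), with values of 8.02, 7.26, 8.89 and 8.21.

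H4 regions fell in WT cells in 7 of 11 cases in the authors' deposited table (median log2 fold -1.06). The region of Hist1h4h (chr13:23530374-23532023) gave the widest spread of all start-holding regions: 8.73 in naive WT, 5.71 in formative WT, 9.92 in naive DKO and 9.44 in formative DKO. Formative WT stood far below the rest. The WT log2 fold was -3.06 in the authors' deposited table (DiffBind adjusted p = 4.87e-07) and the formative genotype difference was 3.73. This region also holds a tRNA gene, n-TMcat9, and the signal of the tRNA and histone genes in it cannot be told apart.

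The Hist1h4n region fell by 1.45 on the log2 scale in the authors' deposited table (DiffBind adjusted p = 4.51e-07) and read 7.54 in naive WT, 6.11 in formative WT, 8.53 in naive DKO and 8.07 in formative DKO. Hist1h4f (chr13:23550597-23552859) fell by 1.34 on the log2 scale in the authors' deposited table (DiffBind adjusted p = 7.00e-06), with values of 8.56, 7.28, 9.49 and 8.79. In both, the DKO groups lay above the WT groups. Hist1h4j (chr13:21734261-21735714) differed: its WT log2 fold was 0.01 in the authors' deposited table (DiffBind adjusted p = 0.987), although DKO was higher by 1.76 in naive and 1.16 in formative cells. Hist1h4c (chr13:23697507-23698466) had the smallest naive genotype difference of the 38, 0.18.

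Linker histone genes were mixed. The Hist1h1c region (chr13:23738211-23740681) had the highest naive WT concentration per kb of all start-holding members, 8.39 on the log2 scale, and fell to 6.67 in formative WT. Its log2 fold of -1.71 passed the test in the authors' deposited table (DiffBind adjusted p = 2.10e-08). Its 4 values were 9.17 in naive WT, 7.54 in formative WT, 9.89 in naive DKO and 9.15 in formative DKO. Hist1h1b (chr13:21779253-21780847) did not pass in the authors' deposited table (log2 fold -0.48, DiffBind adjusted p = 0.368), and DKO was higher by 1.13 in naive and 1.15 in formative cells.

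Hist1h1e (chr13:23621372-23622800) had the highest WT log2 fold of the start-holding regions, 0.47 in the authors' deposited table (DiffBind adjusted p = 0.634). It was also highest in formative DKO, with values of 7.50 in naive WT, 8.02 in formative WT, 8.83 in naive DKO and 9.18 in formative DKO. The region named for Hist1h1d (chr13:23554287-23556779) is centred 501 bases from the start the file assigns, and fell by 0.66 on the log2 scale in the authors' deposited table (DiffBind adjusted p = 0.0402), with DKO higher by 1.31 in naive and 1.21 in formative cells.

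Outside the Hist1 cluster the WT state change was smaller. Of the 12 Hist2 regions 1 fell in the authors' deposited table, against 33 of 54 Hist1 regions, and the median log2 fold was -0.33 against -1.14. The difference between the clusters was not tested. Over the starts alone the medians were -0.84 in 6 Hist2 and -1.13 in 31 Hist1 regions, in the authors' deposited table. Over start-holding regions the median genotype difference was 1.50 in Hist2 and 1.00 in Hist1 for naive cells, and 1.60 and 1.61 for formative cells.

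Within Hist2, Hist2h2aa1 read 7.49 in naive WT, 6.54 in formative WT, 9.07 in naive DKO and 8.49 in formative DKO, so that DKO was higher by 1.58 and 1.96. Hist2h4 (chr3:96261203-96264672) had a WT log2 fold of 0.03 in the authors' deposited table (DiffBind adjusted p = 0.934), and was higher in DKO by 1.85 in naive and 1.21 in formative cells. Hist2h2ab (chr3:96218785-96220345) differed between genotypes by 1.43 and 1.46. The small Hist2h2be start region (chr3:96220945-96221438) was highest in formative DKO at 10.75, against 10.32 in naive DKO, 9.82 in naive WT and 9.02 in formative WT. Hist2h2bb (chr3:96268611-96270316) differed by 1.77 and 2.01, the Hist2h3c2 region 1714 bases from its assigned start (chr3:96236921-96237906) by 0.93 and 0.69, and that 3932 bases from it (chr3:96250150-96251115) by 2.09 and 1.03.

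Hist4h4 (chr6:136803240-136805378), the only member on chromosome 6, read 8.32 in naive WT, 8.16 in formative WT, 9.43 in naive DKO and 9.30 in formative DKO. Its log2 fold of -0.06 between WT states did not pass in the authors' deposited table (DiffBind adjusted p = 0.898), and DKO was higher by 1.11 and 1.14. Hist3h2a on chromosome 11 (chr11:58954809-58955927) was higher in DKO by 1.07 in naive and 0.54 in formative cells. The region assigned to Hist1h2al (chr13:51257257-51257905) was listed at 0 in naive WT and at 9.41 in formative WT, 2.87 in naive DKO and 2.32 in formative DKO, and passed in the authors' deposited table (DiffBind adjusted p = 5.12e-05). It was 1 of 2 members at 0 in a group.

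Members far from a start were mixed. The 19 regions over 5 kb from the assigned start had a naive genotype median of 0.01, with 1 at least 2-fold higher and 5 lower. Naive WT was the highest group in 9 of them, and in 0 of the 38 start-holding regions. It was the highest in 1106 of all 7204 start-holding regions and 27123 of all 105643 regions. Between the WT states 9 of the 19 fell and 0 rose in the authors' deposited table, with a median log2 fold of -1.10. In formative cells 9 were at least 2-fold higher in DKO and 2 lower (median 0.97).

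Among them, every WT log2 fold of -3.22 or lower stood in 2 blocks of the Hist1 cluster. Outside both blocks, the Hist1h2bn region at chr13:21759655-21760794 had a log2 fold of -2.66 in the authors' deposited table (DiffBind adjusted p = 0.00175). Between 12332 and 27985 bases from the assigned start of Hist1h2br, 5 regions above 0 in every group spanned chr13:21845274 to chr13:21863053. The farthest (chr13:21860403-21863053) read 9.07 in naive WT, 4.77 in formative WT, 6.57 in naive DKO and 6.23 in formative DKO. Naive WT was far above the other 3 groups, and the WT log2 fold was -4.01 in the authors' deposited table (DiffBind adjusted p = 1.37e-23). Its neighbour (chr13:21856586-21860052) read 8.26, 5.08, 6.52 and 5.96, with a log2 fold of -3.22 in the authors' deposited table (DiffBind adjusted p = 8.59e-30).

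The other 3 of the block had WT log2 folds of -3.44, -3.67 and -2.56 in the authors' deposited table. A further region there (chr13:21850733-21851318) was listed at 0 in formative WT and at 10.33 in naive WT, 8.43 in naive DKO and 8.68 in formative DKO. It passed in the authors' deposited table (DiffBind adjusted p = 1.19e-07). None of the 6 holds a histone start or a tRNA gene, and the nearest tRNA gene was 492 to 4309 bases away. All 50-base words of the region nearest to Hist1h2br (chr13:21845274-21846877) also occurred in other member regions, mostly in that assigned to Hist1h2bp at chr13:21796916-21798650, which fell too (log2 fold -2.14 in the authors' deposited table, DiffBind adjusted p = 5.89e-05). The other 5 shared none.

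The other block was assigned to Hist1h4h. The region at chr13:23509956-23518504, 8550 bases wide, holds 3 tRNA genes (n-TGgcc6, n-TMcat6 and n-TStga1). It read 7.24 in naive WT, 3.81 in formative WT, 6.55 in naive DKO and 4.78 in formative DKO. Its log2 fold between WT states was -3.67, with the smallest adjusted p of all members in the authors' deposited table (DiffBind adjusted p = 2.31e-43). The next region (chr13:23518815-23519437), with the tRNA gene n-TQttg4, read 9.85, 4.19, 8.40 and 8.72 and had a log2 fold of -4.67 in the authors' deposited table (DiffBind adjusted p = 4.45e-05). The other 2 tRNA-holding regions without a histone start, near Hist1h2ah and Hist1h2bj, had log2 folds of -0.67 and -0.11 in the authors' deposited table and did not pass.

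In 3 of the 68 regions formative DKO was at least 2-fold below formative WT. They were those 4421 bases from Hist2h2bb (chr3:96273763-96274479, difference -2.90), 7759 bases from Hist1h2bp (chr13:21794952-21795542, -2.16) and 12067 bases from Hist1h2bn (chr13:21764188-21768099, -1.42). None of the 3 holds a histone start.

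**Figure D2:**
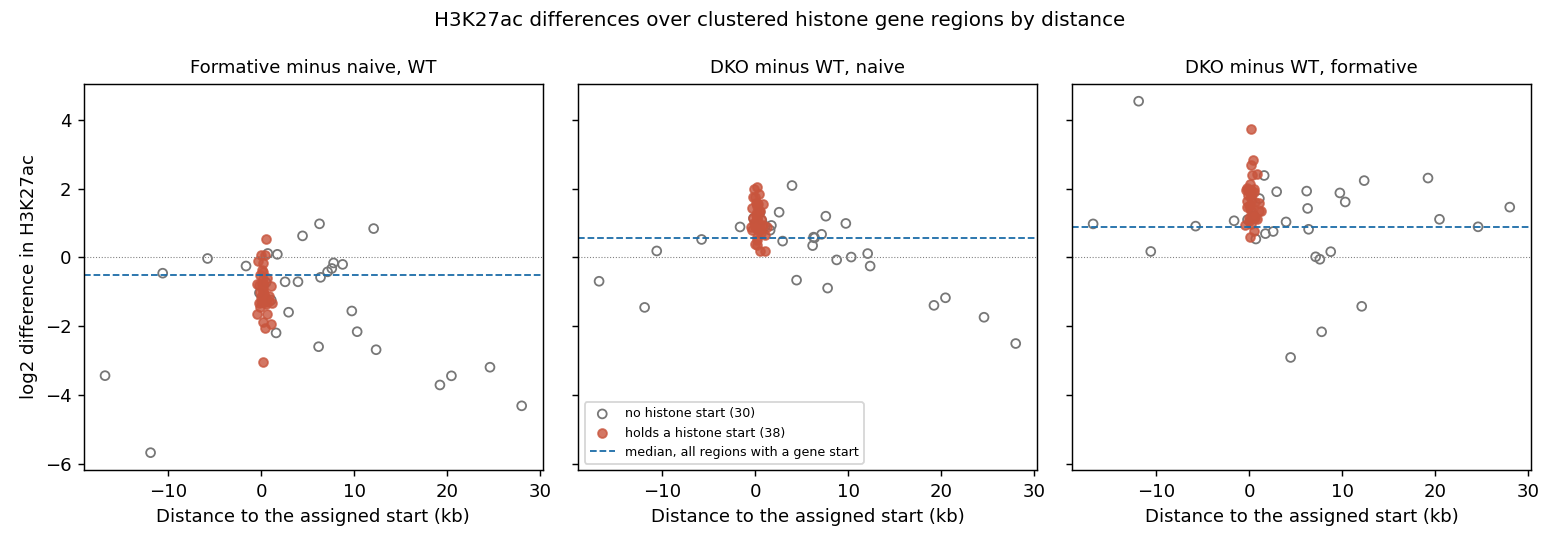
Log2 difference in H3K27ac (y axis) against distance from the assigned transcription start in kb (x axis) for the 68 member regions, in 3 comparisons. Filled points hold a histone start (38), open points do not (30), and the dashed line is the median of all regions that hold a protein-coding start. All 38 filled points lie above 0 in both genotype comparisons, while the open points far from a start lie on both sides in naive cells.

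Over whole genes, taking the median over a gene's regions, the 48 genes had median log2 differences of -0.98 between WT states, -0.55 between DKO states, 0.96 between genotypes in naive and 1.38 in formative cells. All 18201 genes with a region within 100 kb had medians of 0.50, -0.06, -0.01 and -0.62. In naive cells 45 of the 48 genes were above 0 for DKO against WT, and in formative cells 47 of 48. Of all 18201 genes, 9039 were above 0 in naive and 5321 in formative cells. The gene medians of the classes in formative cells were 1.18 for H1 (4 genes), 1.85 for H2A (11), 1.28 for H2B (11), 1.61 for H3 (10) and 1.20 for H4 (12). The genes ranged from -0.27 for Hist1h2bp to 2.84 for Hist1h2bh, both H2B genes. The value for Hist1h2bp comes from regions 7759 and 10295 bases away, at -2.16 and 1.61. The Hist1h2bp start itself lies in the region assigned to Hist1h2an, at 2.40. Over start-holding regions alone the class medians were 1.16 for H1, 1.93 for H2A, 1.90 for H2B, 1.61 for H3 and 1.34 for H4.

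H3K4me1, the product of the MLL3 and MLL4 enzymes at enhancers, was also higher at the histone starts in DKO cells. The values are log2 folds of the authors' deposited table, from libraries outside this series. In naive cells all 38 start-holding regions were above 0, with a median of 0.97, but so were 91.0% of all start-holding regions. Of the 38, 18 were at least 2-fold higher. The share at least 2-fold higher was 18.4% of all start-holding regions (median 0.69) and 4.59% of all regions (median -0.31). In formative cells all 38 were above 0 (91.6% of all start-holding regions), with a median of 0.74, and 7 were at least 2-fold higher, against 19.6% of all start-holding regions (median 0.70) and 10.5% of all regions. The formative share among members was thus near that of all starts.

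By class, the naive H3K4me1 medians in the authors' deposited table were 1.11 for H2A, 1.05 for H3, 1.00 for H1, 0.90 for H2B and 0.85 for H4. The highest single value was that of the Hist1h4h start region, 1.81, which also had the largest formative H3K27ac difference. Hist1h3c, with a naive H3K27ac difference of 0.20, had a naive H3K4me1 fold of 0.98 in the authors' deposited table. Between states H3K4me1 changed little at the histone starts, as it did at all starts. The median was 0.24 in WT and 0.02 in DKO, against 0.15 in each over all start-holding regions. At 2-fold, 0 of 38 regions passed in either genotype. Of all 7204 start-holding regions, 91 were higher and 57 lower in WT, and 26 and 9 in DKO.

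**Figure D3:**
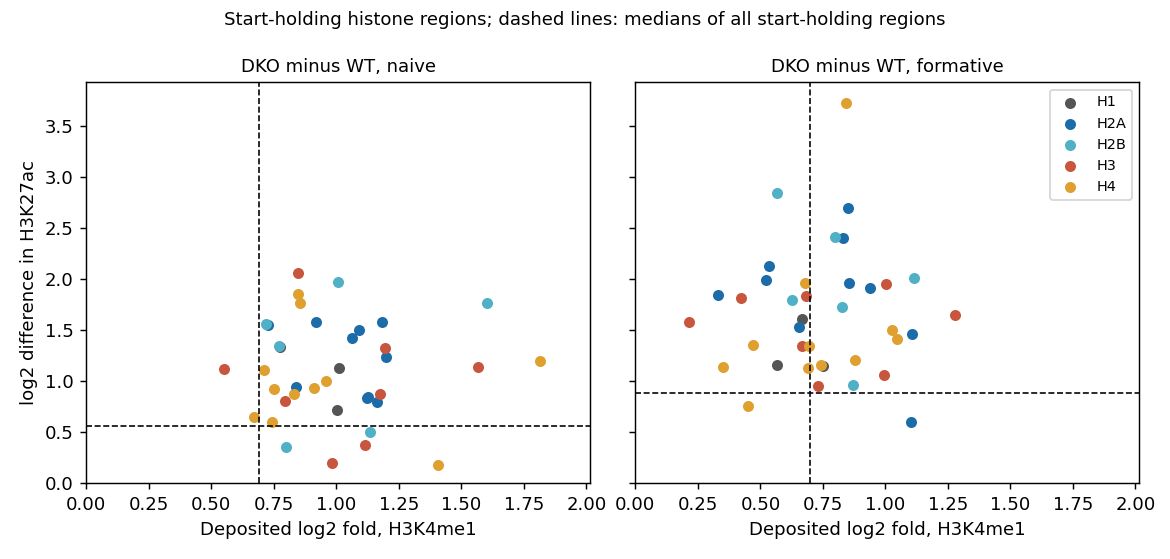
H3K27ac log2 difference (y axis) against the deposited H3K4me1 log2 fold (x axis), DKO minus WT, for the 38 start-holding regions in naive (left) and formative cells (right), coloured by class. Dashed lines are the medians of all 7204 start-holding regions. Every point lies above 0 on both axes.

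RNA of the member genes was mostly higher in formative than in naive WT. The authors' deposited table gives RNA folds, from libraries outside this series, for 35 of the 49 genes. How those libraries were selected is not given in the sources used here, which matters because replication-dependent histone mRNAs lack a poly(A) tail. Near-identical copies also share RNA reads. Between WT states the median log2 fold was 1.04, with 19 genes 2-fold higher or more in formative cells and 2 lower by as much; of all 9781 genes with a fold these were 17.1% and 9.65% (median 0.13). The deposited RNA folds carry no test here. Of the 30 genes with an RNA fold and a start-holding region, 24 had higher RNA and lower H3K27ac in formative WT. Of all 4504 genes with both readouts, 34.5% did.

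The highest RNA folds in the authors' deposited table were those of Hist1h2bj, 2.68, Hist1h4b, 2.64, and Hist1h3e, 2.25, whose start regions had H3K27ac log2 folds of -0.72, -1.06 and -1.67. The 2 lower genes were Hist2h3c2, at -2.79, and Hist3h2a, at -1.25, both outside the Hist1 cluster. In DKO cells the RNA median between states was 0.65, with 14 genes past 2-fold higher and 0 past it lower (18.0% and 5.15% of all genes). Hist4h4 had the highest of these folds, 2.48.

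The genotype comparison of RNA gave medians below 0. In naive cells the median RNA fold, DKO against WT, was -0.16, with 3 genes past 2-fold in each direction, where 8.54% of all genes were higher and 11.2% lower in the authors' deposited table. In formative cells it was -0.27, with 2 higher and 8 lower, where the shares of all genes were 5.87% and 5.05%. Of the 30 genes with both readouts, 21 had lower RNA and higher H3K27ac in formative DKO, as did 33.5% of all 4504 such genes. Hist1h2bj and Hist1h4b, at -1.63 and -1.61, were the lowest in the authors' deposited table, and Hist2h2be, at 2.22, the highest.

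**Figure D4:**
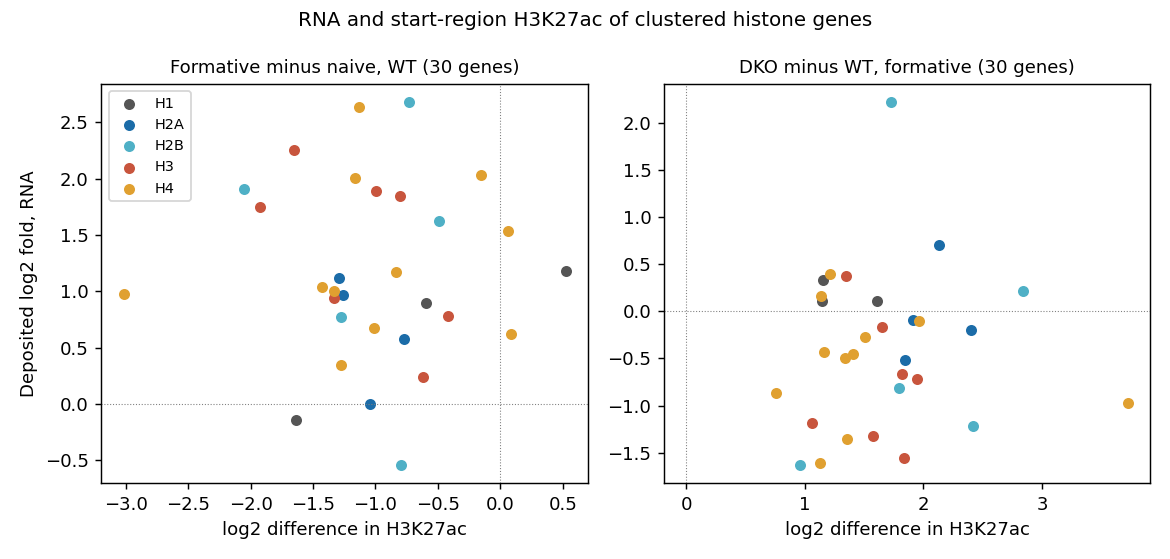
Deposited RNA log2 fold (y axis) against the H3K27ac log2 difference over start-holding regions (x axis) for the 30 member genes with both, in formative against naive WT (left) and DKO against WT in formative cells (right). On the left 24 genes lie at higher RNA and lower H3K27ac, and on the right 21 lie at lower RNA and higher H3K27ac.

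Over all their regions, near and far from the start, genes of the wider histone pathway were mixed. Of 24 genes for transcription and 3′ end processing of histone mRNA, 22 had a region. Between WT states 5 of these had only regions that rose, 6 only regions that fell, 5 both and 6 neither in the authors' deposited table. Over all 18201 genes the shares were 30.9% only rose, 24.4% only fell, 12.9% both and 31.8% neither. A gene with more regions has more chances of a call: the median was 5 regions for these genes, 8 for the chaperones below, 4.5 for the variants and 3 over all genes. Their gene medians centred on -0.07 between WT states and 0.20 and 0.05 between genotypes in naive and formative cells. Of 14 histone chaperones 13 had a region, of which 3 only rose, 5 only fell, 4 did both and 1 neither in the authors' deposited table. Of 11 replication-independent variant genes 10 had a region, of which 1 only rose, 4 only fell, 1 did both and 4 neither in the authors' deposited table.

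At promoters, Npat showed no significant WT change in the authors' deposited table (log2 fold 0.09, DiffBind adjusted p = 0.894), and was higher in DKO by 1.58 in naive and 0.57 in formative cells. Coil, the gene of the Cajal body protein coilin, fell by 3.33 on the log2 scale in the authors' deposited table (DiffBind adjusted p = 8.66e-29) and was higher in DKO by 0.64 and 2.31. Ccne1, encoding cyclin E1, had a log2 fold of -2.13 in the authors' deposited table (DiffBind adjusted p = 2.09e-08). Among NF-Y subunit genes, Nfyc (log2 fold -1.31, DiffBind adjusted p = 6.15e-06) and Nfyb (-0.99, DiffBind adjusted p = 0.0294) fell in the authors' deposited table, while Nfya, at -0.54, did not pass (DiffBind adjusted p = 0.227).

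Outside the clusters, the promoters of the variant histone genes H2afz, H3f3a and H2afx also fell between WT states, as did 32.6% of all start-holding regions. H2afz, encoding H2A.Z, had a log2 fold of -2.22 in the authors' deposited table (DiffBind adjusted p = 8.79e-12). The authors' deposited table gives a log2 fold of -1.88 for H3f3a, encoding H3.3 (DiffBind adjusted p = 9.28e-06), and -1.22 for H2afx, the gene of the DNA damage histone H2A.X (DiffBind adjusted p = 3.36e-06). Their formative DKO minus WT differences were 1.98, 1.80 and 0.62, and their naive ones -0.31, 0.50 and -0.15. In naive cells these 3 promoters thus lay below the median of the clustered start-holding regions, 1.12. H2afj, an H2A variant gene, did not pass between WT states in the authors' deposited table (log2 fold -0.06, DiffBind adjusted p = 0.903) and was higher in DKO by 1.32 and 1.24. Its promoter region (chr6:136806627-136809578) lies close to the Hist4h4 region.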

How the data were processed

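H3K27ac CUT&Tag was deposited as 1 table of regions. The submitters' processing notes name Trim Galore, Bowtie2, SEACR, DiffBind, deepTools and mm10. Which tool did what, and in which version, was not given in the sources used here. Values in the 4 H3K27ac columns are pooled log2 values deposited by the authors, 1 per group. The authors also deposited DiffBind's log2 fold, p-value, adjusted p-value (over all regions) and log2 concentrations for formative against naive WT. Deposited log2 folds of H3K4me1 and RNA come from libraries outside this series. The 12 columns of H3K4me1 and RNA levels were not used. The deposited descriptors, region width and distance to the start, were used as given per the file headers. Regressed on concentration and log2 width, the pooled values had a width exponent of -1.98 (naive WT) and -2.00 (formative WT).

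Differences were taken between pooled columns within a region, for regions above 0 in all 4 groups. No test is possible on pooled columns, so 3 of the 4 comparisons have no p-value. Regions were summarised per gene by their median, and genes by theirs. Histone starts came from GENCODE M21 and tRNA genes from RefSeq (GRCm38.p6). The split into regions with and without a histone start or an H2A-H2B pair, the comparison with all regions that hold a protein-coding start, and the sharing of 50-base words were chosen after seeing the data. Gene summaries were tested on simulated data. Python 3.11.15, pandas 2.3.3, numpy 2.4.6 and pysam 0.24.0 were used.

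The members, gene lists and rules were chosen with earlier results of these data known. Named genes were, per class, the 2 with the highest promoter concentration; per comparison, the 6 highest positive and 6 lowest negative gene medians; the 6 smallest adjusted p; every gene outside the Hist1 cluster; and regions at 0. Regions of other genes (Hist1h1b, Hist1h1d, Hist1h3e, Hist1h4c, Hist1h2bn), pathway genes and RNA extremes were chosen after their values were seen. Alternatives changed scaling, filters, distance, summary and thresholds.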

Additional observations from a re-analysis of the deposited data

How the results depend on the processing

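The median over member genes kept its direction in all 4 comparisons under all 9 alternatives tried for each (scaling, value filters, distance, region nearest to the start, with H13 and H19, and regions with under 10% shared words, the last 2 added after seeing the data). With no spread between replicates, a median is called moved here when it shifted by over 1.5-fold. The WT state median, -0.98, became -1.69 under quantile normalization. The formative genotype median, 1.38, became 2.01 when centred on all regions, 0.59 when centred on promoters and 2.34 under quantile normalization. The naive genotype median, 0.96, became 0.39 when centred on promoters, a shift just within the 1.5-fold limit. It was 1.06 when centred on all regions and 1.03 under quantile normalization. The cause was not tested, and no scaling is stated by the sources used here. The count of member regions higher between WT states by DiffBind, 0 of 68, became 1 of 70 without the value filter (Hist1h2al) and 1 of 72 with H13 and H19 (an H19 region). The count lower, 34 of 68, became 14 of the 36 regions with under 10% shared words, a smaller share of a smaller set. It was 25 to 35 under the other alternatives. Over those 36 regions the gene medians were -0.66 between WT states and -0.57 between DKO states. Between genotypes they were 0.69 in naive and 1.12 in formative cells. No paired analysis was possible because the deposited columns pool the replicates, and leaving out each replicate or adding a replicate block could not be run for the same reason. The depth per library is unknown, so small differences cannot be weighed against counting error.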
